A study of Mus musculus with 4 samples.

Results

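Regulatory T cells (Treg) that had been infected with a control hairpin virus and kept in culture were compared with untransduced Treg. The comparison uses 2 of the 4 arrays of the series: the array labelled si-RL and the array of untransduced Treg, 1 array per group. Both hold CD4+CD25+ natural Treg from spleen and lymph nodes of Balb/C mice, enriched on magnetic beads. The cells labelled si-RL received a lentivirus with a short hairpin RNA against Renilla luciferase, an enzyme that mouse cells do not make. They were held for 60 h in medium with human IL-2, the growth factor on which Treg depend, and GFP+ cells were sorted. The Treg of the comparison array are labelled untransfected, and a culture time for them is not given. Infection, the culture with IL-2 and the GFP sort come together on the si-RL array and cannot be told apart. The other arrays, given for levels only, are CD4+CD25-CD62L-high naive T cells without a virus and Treg that went through the same steps with a hairpin against Eos (labelled si-Eos). The age of the mice, and how many were pooled, are not given in the sources used here, and CD4+CD25+ cells can include activated T cells that are not Treg.

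Each value below compares 1 library with 1 library, so no test was possible and no p-value is given. A level is the log2 processed signal of a gene's probe relative to the 75th percentile of that array, and a difference is the level in the si-RL-labelled library minus the level in Treg. The ± is the scanner's error estimate for both spots, which leaves out all variation between cultures. A difference of at least 2-fold is 1 or more on the log2 scale. Well above background on both arrays were 17082 of 27593 genes, and these are the measured genes. Their median difference was -0.01, with 1348 (7.89%) at least 2-fold higher and 1402 (8.21%) at least 2-fold lower in the si-RL-labelled library. Each count of a gene list below is to be read beside these shares. With spike-in scaling the split was 654 higher to 2967 lower, and with normexp background correction 961 to 4462, so the balance of the 2 directions rests on the scaling and the background correction. The median difference moved by -0.38 and -0.30 there. Of 847 genes apart by 2-fold that had another measured probe, 163 (19.2%) had a probe that went the opposite way.

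Eos, encoded by Ikzf4, was lower in the si-RL-labelled library than in the si-Eos-labelled library on all 3 of its probes, which goes against those labels. Its 3 differences from Treg were -1.18, -1.27 and -0.67 (mm8 chromosome 10, probe starts 128036782, 128036473 and 128037711). Foxp3, the transcription factor that defines Treg, read 1778 in Treg and 110 in the si-RL-labelled library (processed signal), beside 64.4 in naive T cells and 2644 in the si-Eos-labelled library. The difference of Foxp3 was -3.43 ± 0.21, and the cells labelled si-RL thus carried little of the defining Treg marker. Libraries are therefore named by their labels, and all signs hold only as labelled.

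**Figure D1:**
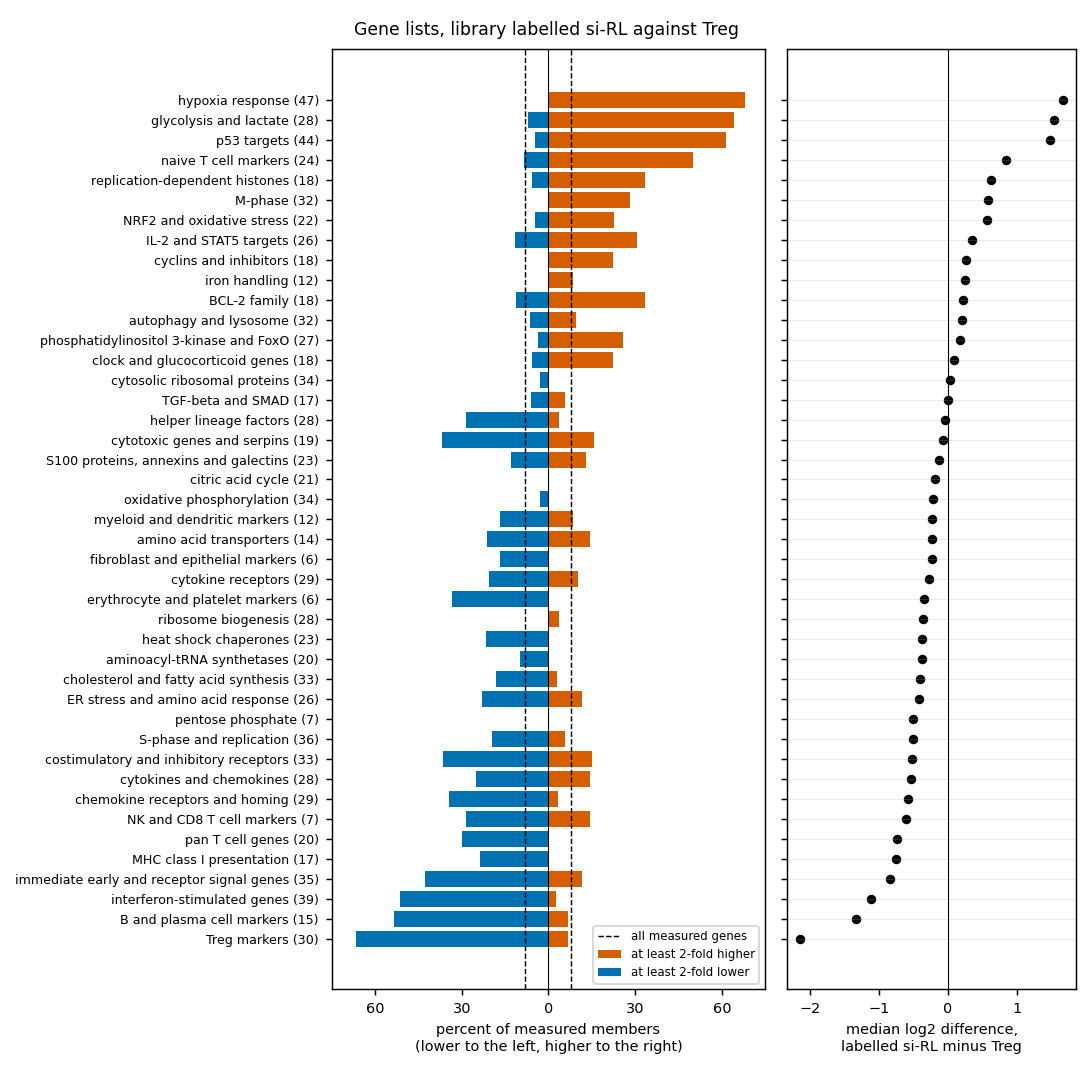
Left, the percent of measured members of each gene list (number in brackets) that were at least 2-fold higher (orange, to the right) or lower (blue, to the left) in the si-RL-labelled library than in Treg; dashed lines mark the same percent over all measured genes, 7.89 and 8.21. Right, the median log2 difference of each list: hypoxia, glycolysis and p53 lists lie at 1.48 to 1.68, and Treg markers at -2.14.

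Cells sense low oxygen through prolyl hydroxylases that mark the hypoxia-inducible factor HIF-1α for destruction by the VHL protein. When oxygen falls, or when growth signals raise its synthesis, HIF-1α accumulates and binds short DNA elements with the core ACGTG or GCGTG. Its targets shift a cell towards glycolysis, mitophagy and blood vessel growth. In T cells HIF-1α has been reported to favour effector over regulatory fates in some settings, which was not tested here.

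The hypoxia list held the highest median of the 43 lists: 32 of 47 measured members were at least 2-fold higher in the si-RL-labelled library, none was 2-fold lower, and the median difference was 1.68. The largest measured difference was that of Vegfa, the vascular growth factor. Over naive T, Treg, the si-Eos-labelled library and the si-RL-labelled library, its level was -2.47, -2.81, 1.01 and 3.37. This is 72.3-fold over Treg (6.18 ± 0.21), and its other measured probe gave 5.85. Vegfa was low on both untransduced arrays and highest in the si-RL-labelled library. P4ha2, a collagen prolyl hydroxylase subunit, was not well above background in Treg (signal 9.12) but read 120 in naive T cells, 182 in the si-Eos-labelled library and 4194 in the si-RL-labelled library. This put it at least 560-fold above Treg, the largest bound of any gene seen on 1 array only.

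The promoters of members that stood far apart are shown because they hold the DNA element of the pathway. Stretches of 80 bases from the 250 bases before the gene start (RefSeq, GRCm38.p6) are given 5′ to 3′ on the gene's strand, with ACGTG and GCGTG in capitals, also where they lie on the other strand, on which ACGTG reads CACGT here while GCGTG reads CACGC:
Bnip3 (chr7:138909560-138909639, - strand): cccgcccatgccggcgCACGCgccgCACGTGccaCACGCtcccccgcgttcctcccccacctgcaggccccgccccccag
Ankrd37 (chr8:45999950-46000029, - strand): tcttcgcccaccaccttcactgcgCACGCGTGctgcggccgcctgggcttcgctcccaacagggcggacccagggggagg
Ddit4 (chr10:59951886-59951965, - strand): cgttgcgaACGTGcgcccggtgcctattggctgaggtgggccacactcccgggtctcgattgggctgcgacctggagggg
Egln3 (chr12:54204045-54204124, - strand): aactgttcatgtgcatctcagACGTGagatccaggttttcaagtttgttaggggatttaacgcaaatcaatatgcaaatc

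Of the 18 measured hypoxia members at least 2-fold higher that had a single start in the RefSeq promoter table, 13 (72.2%) held ACGTG on either strand in these 250 bases and 14 (77.8%) held GCGTG. Over all 22862 genes with a single start, the shares were 16.3% and 27.7%. Of the 11 listed members that were less than 2-fold apart, 3 (27.3%) held ACGTG, 5 (45.5%) held GCGTG and 7 (63.6%) held either. Either was held by 17 of the 18 (94.4%) and by 37.9% of all genes with a single start. Bnip3 had 5 matches in its 250 bases, counting ACGTG and GCGTG on both strands, where overlapping matches count separately. The list was made of known targets of the factor, so its share of the element is a property of the list, and a match is not a shown binding site.

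Of the oxygen-sensing hydroxylases on the list, Egln3 and Egln1 were at least 2-fold higher and Hif1an was not. Egln3, a HIF prolyl hydroxylase that is also a HIF target, had levels of -3.63, -1.53, 2.20 and 1.47 in naive T cells, Treg, the si-Eos-labelled library and the si-RL-labelled library, a difference of 2.99 ± 0.21. Egln1, the main hydroxylase, differed by 1.55 ± 0.20. The factor's own gene, Hif1a, differed by 1.24 ± 0.20, with its highest level in the si-Eos-labelled library (4.43). Vhl (0.43) and Hif1an (0.62), which encodes the factor-inhibiting hydroxylase, were within 2-fold of Treg.

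Other members act on mitochondria and metabolism. Bnip3, a mitophagy receptor, stood at -0.50, -0.41, 3.43 and 3.91 in the same order of arrays (4.33 ± 0.20), and its relative Bnip3l at 4.55, 4.27, 4.55 and 6.06 (1.79 ± 0.20, and 0.72 on its other probe). Bnip3 was at least 2-fold above Treg on both hairpin arrays. Bnip3l had a high level on every array and was 2-fold above Treg in the si-RL-labelled library only. Pdk1, the kinase that closes the pyruvate dehydrogenase gate into the citric acid cycle, was also 2-fold above Treg in that library only. Its levels were 0.49, -0.50, -0.35 and 3.31, so that the si-RL-labelled library was 14.0-fold over Treg (3.81 ± 0.20; other probe 3.80) while the si-Eos-labelled library stood within 2-fold of Treg. Ankrd37 (0.02, -0.35, 0.45 and 3.37) and Plod2, a collagen lysyl hydroxylase (-1.31, -1.90, -1.32 and 1.39), also stood at least 2-fold above the other arrays only in the si-RL-labelled library. Ndrg1, a stress-inducible gene of the N-myc downstream-regulated family, was 18.9-fold over Treg (4.24 ± 0.20).

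Some listed genes did not move by 2-fold. Car9, carbonic anhydrase 9 and a standard hypoxia marker in tumours, differed by -0.25 ± 0.20, the only negative value of the list. Adm (adrenomedullin) differed by 0.42 ± 0.21, and Lox was not well above background on either array. Inhba, like P4ha2, was well above background in the si-RL-labelled library and not in Treg. The si-Eos-labelled library, compared with the same Treg array, had 27 of the 47 past 2-fold upward and none downward (median 1.37). Over all 17082 measured genes, that comparison gave 1448 higher and 1823 lower. Of the 47 members, 38 (80.9%) had a level in the si-RL-labelled library that lay nearer to the si-Eos-labelled library than to naive T or Treg, against 35.0% of all measured genes.

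**Figure D2:**
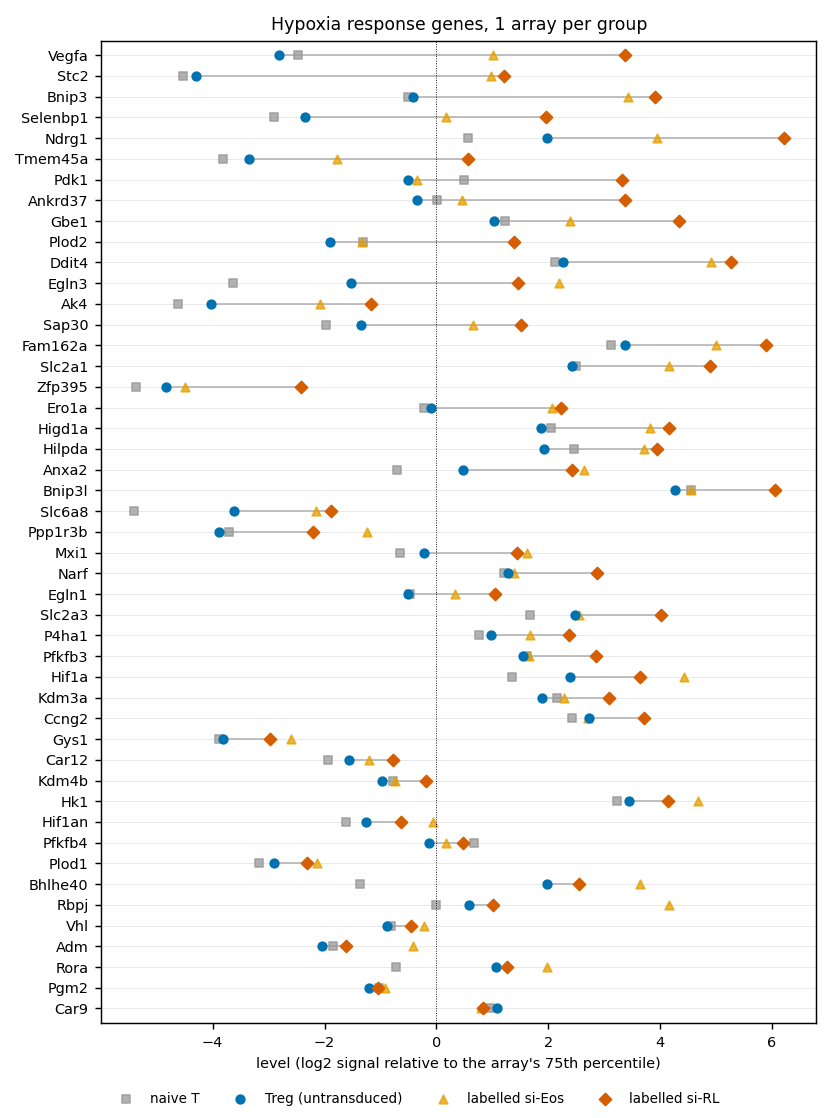
Levels (log2 signal relative to the array's 75th percentile) of all 47 measured hypoxia genes on the 4 arrays, ordered by the difference between the si-RL-labelled library and Treg, which a grey line joins. The si-RL diamonds lie to the right of the Treg circles for 46 of 47 genes, Car9 being the exception.

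Glycolysis breaks glucose down to pyruvate and lactate, and activated T cells rely on it. The steps of the pathway did not all differ alike. At the entry, the glucose transporter gene Slc2a1 differed by 2.48 ± 0.20 and Hk2, the inducible hexokinase, by 3.72 ± 0.20, with levels of -3.56, 0.22, 4.03 and 3.95 in naive T cells, Treg, the si-Eos-labelled library and the si-RL-labelled library. Hk1, the constitutive hexokinase, differed by 0.69 (other probes 0.18 to 1.49). Among the phosphofructokinase genes, which encode the committed step, Pfkp (2.49 ± 0.20), Pfkl (1.87 ± 0.20) and Pfkm (1.10 ± 0.20) were each at least 2-fold higher. Among later steps, Aldoc, Tpi1, Eno2 and Pgk1 differed by 3.46, 3.39, 2.83 and 2.68, and Gapdh by 0.77 ± 0.20. The lactate exporter gene Slc16a3 was 21.4-fold over Treg and high on both hairpin arrays (-1.40, -0.67, 3.21 and 3.75).

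In all, 18 of 28 measured members of the glycolysis and lactate list were at least 2-fold higher (median 1.55) and 2 lower. The 2 that were lower were Eno3, the muscle enolase (-1.68 ± 0.20), and Bpgm (-1.57 ± 0.21; other probe -1.47), the enzyme of the 2,3-bisphosphoglycerate shunt. Ldhb, the lactate dehydrogenase subunit that favours pyruvate, differed by -0.31 while Ldha differed by 1.57 ± 0.20. No member of the pentose phosphate (0 of 7) or citric acid cycle lists (0 of 21) was 2-fold apart. Of 34 oxidative phosphorylation genes, 1 was 2-fold apart, the complex I gene Ndufb5 (-1.60 ± 0.20). Their medians were -0.50, -0.18 and -0.22; with normexp, those of the pentose phosphate and oxidative phosphorylation lists changed sign. Higher hypoxia and glycolysis transcripts were thus seen beside respiratory genes that were nearly all within 2-fold of Treg.

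The protein p53 halts the cell cycle and starts apoptosis after DNA damage and other stresses. It is controlled mostly by protein stability, not by its mRNA. Trp53 itself differed by -0.78 ± 0.20, within 2-fold, and its other probe by 0.76. Among 44 measured p53 targets, 27 passed 2-fold upward and 2 downward (median 1.48). Cdkn1a, which encodes the cell cycle inhibitor p21, had a signal of 13.9 in Treg and 1154 in the si-RL-labelled library, beside 4.41 in naive T cells and 2149 in the si-Eos-labelled library. Cdkn1a was close to the background in both untransduced samples, and its difference was 6.95 ± 0.32.

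Targets that restrain p53 and targets that repair DNA were both among the higher genes. Mdm2, the ligase that degrades p53, differed by 1.76 ± 0.20 and Ccng1, a cyclin G gene, by 2.66 ± 0.20. Sesn2, a stress-inducible inhibitor of mTORC1, stood at -0.69, 0.16, 3.95 and 3.83 across the arrays in the order naive T, Treg, si-Eos and si-RL (3.68 ± 0.20; other probe 0.83). Polk, a translesion DNA polymerase, differed by 2.85 ± 0.21. Several classical targets were not higher by 2-fold: Gadd45a differed by -0.19 ± 0.20, Btg2 by -0.47 ± 0.20 (other probes -1.35 to -0.96), Ddb2 by -0.33 ± 0.20, Rrm2b by -0.67 ± 0.21 and Gdf15 by -0.48 ± 0.28. Lower were Plk3 (-1.41 ± 0.20) and Tap1 (-2.13 ± 0.20). Tap1 also belongs to the antigen presentation list. In the si-Eos-labelled library, set against the same Treg array, 23 of the 44 passed 2-fold upward and 4 downward. Over all 17082 measured genes, 1448 passed upward and 1823 downward in that library.

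The BCL-2 family decides whether mitochondria release the signals of apoptosis. Its BH3-only members start the process, BAX and BAK open the membrane, and BCL-2, BCL-XL and MCL-1 oppose them. Of 18 measured members, 6 passed 2-fold upward and 2 downward, with a median of 0.23 that turned to -0.15 with spike-in scaling. Among starters, Bbc3 (PUMA) had levels of 2.15, 2.13, 4.23 and 5.55 and Bcl2l11 (BIM) of 0.35, 0.36, 1.31 and 2.91 across naive T cells, Treg, the si-Eos-labelled library and the si-RL-labelled library. Both were highest in the si-RL-labelled library, with differences of 3.42 ± 0.20 and 2.55 ± 0.20. Bax differed by 2.53 ± 0.20 and Bak1 by -0.08 ± 0.20, so the 2 pore-forming genes were unlike. On the opposing side, Bcl2 was higher (1.61 ± 0.20; other probes 0.86 to 1.84), Mcl1 differed by 0.17 and Bcl2l1 (BCL-XL) by 0.43 (other probes 0.76 to 1.20). Bcl2a1b was lower (-2.38 ± 0.20), and so was the starter Bid (-1.34 ± 0.20); Bcl2a1b has near-identical copies, which its probe may not tell apart.

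**Figure D3:**
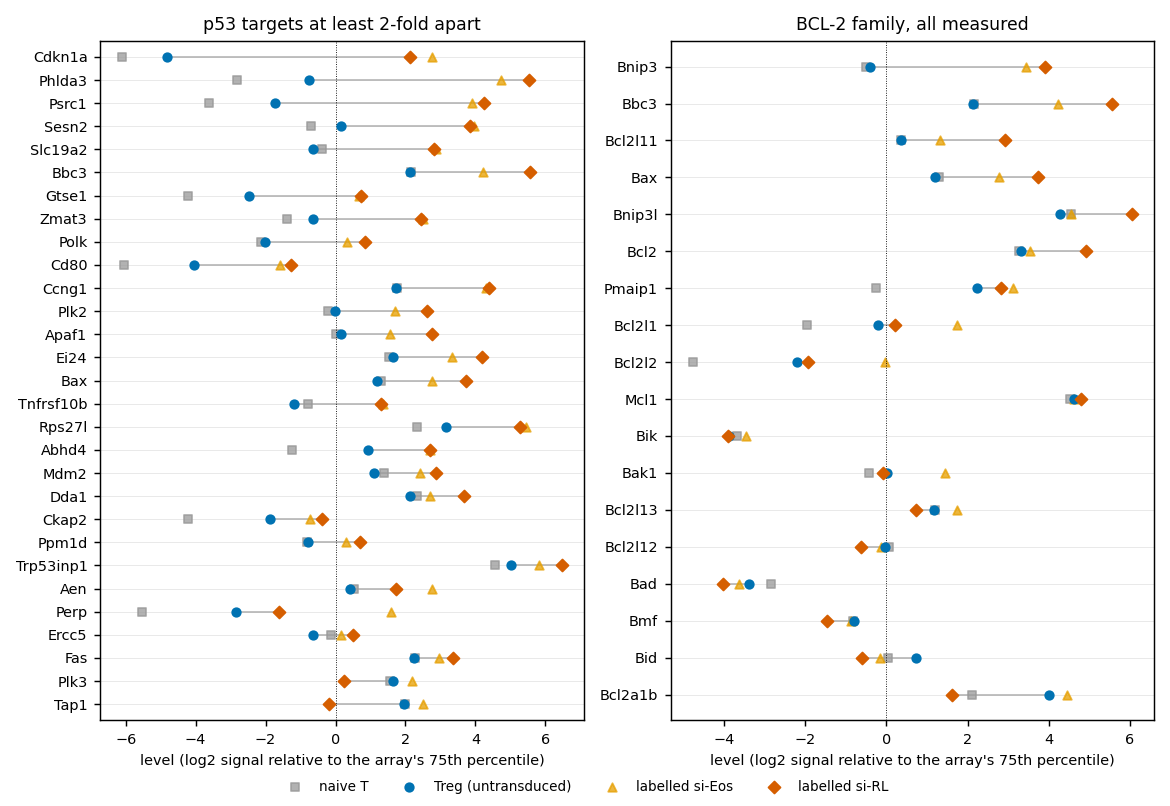
Levels (log2 signal relative to the array's 75th percentile) on the 4 arrays of p53 targets that were at least 2-fold apart (left) and of all 18 measured BCL-2 family genes (right). For 27 of the 29 p53 targets, both hairpin arrays lie above both untransduced arrays, while Bcl2l11 and Bcl2 are highest in the si-RL-labelled library. The 29 were chosen by their difference between the si-RL-labelled library and Treg. The gap between that library and Treg therefore follows from the choice.

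Other stress programmes were more mixed. The zinc-binding metallothioneins Mt2 (0.74, 0.62, 5.04 and 3.70 in the order naive T, Treg, si-Eos, si-RL) and Mt1 (2.21 ± 0.20; other probe 0.07) led the oxidative stress list, in which 5 of 22 passed 2-fold upward and 1 downward (median 0.56). The lower gene was Gpx1, a glutathione peroxidase (-1.14 ± 0.20). Hmox1, haem oxygenase, differed by 0.74. The NRF2 targets Nqo1 (1.98 ± 0.29) and Gclm (1.04 ± 0.23) were higher here but came out lower with normexp (-0.78 for each). Of 23 heat shock genes, none was 2-fold higher and 5 were lower. With normexp 1 was higher and 4 lower, and the list median of -0.04 lay above the all-gene median of -0.31. Hspa1a, the inducible HSP70, differed by -3.27 ± 0.21, and its other probes by -3.34 to -1.51.

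In the endoplasmic reticulum and amino acid response list, 3 of 26 were higher and 6 lower. Of all measured genes, 7.89% were higher and 8.21% lower in the si-RL-labelled library. The chaperone BiP, Hspa5, differed by -1.29 ± 0.20 and the phosphatase subunit gene Ppp1r15a (GADD34) by -2.47 ± 0.20. Atf4 (-0.90) and Ddit3 (CHOP, -0.73) were within 2-fold. Vldlr, a lipoprotein receptor, was not well above background in naive T or Treg and was at least 93.3-fold higher in the si-RL-labelled library. Among the amino acid transporter genes, the 2 chains of the large neutral transporter differed by -0.45 (Slc7a5) and -1.14 ± 0.20 (Slc3a2), and 2 of 14 were higher and 3 lower. Aminoacyl-tRNA synthetases had 0 of 20 higher and 2 lower (Mars1, -1.35, and Aars, -1.16). In cholesterol and fatty acid synthesis, 1 of 33 was higher, Scd2 (1.80 ± 0.20), and 6 were lower, including Insig1 (-1.75 ± 0.21). For the si-Eos-labelled library against the same Treg array, the counts in these 3 lists were 8 of 14, 5 of 20 and 13 of 33 higher, and 0, 0 and 2 lower. Beside these stood 1448 higher and 1823 lower over all 17082 measured genes.

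Treg identity rests on Foxp3 together with surface molecules that carry out suppression. In the Treg marker list, 20 of 30 measured genes were at least 2-fold lower in the si-RL-labelled library and 2 higher (median -2.14), and 4 more (Ccr8, Il10, Lag3 and Klrg1) were well above background in Treg but not in the si-RL-labelled library. The markers were not all alike. Several receptor genes of the list were within 2-fold of their Treg level. Il2ra, which encodes CD25, differed by 0.46 ± 0.20, Tnfrsf18 (GITR) by 0.42 ± 0.20, Icos by 0.33 ± 0.20 and Tnfrsf4 (OX40) by -0.64 ± 0.20. Outside this list, Il2rb differed by -0.27 ± 0.20. Transcription factor genes also differed among themselves, with Ikzf2 (Helios) at -3.95 ± 0.20 and Gata3 at 0.39 ± 0.20.

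For 18 of the 30 Treg markers (60.0%), the level in the si-RL-labelled library was nearer to naive T cells than to Treg or to the si-Eos-labelled library, against 30.2% of all measured genes. Nt5e (CD73), which makes adenosine from AMP, stood at -0.57, 2.39, 2.19 and -0.59 in naive T cells, Treg, the si-Eos-labelled library and the si-RL-labelled library. Entpd1 (CD39), which acts before it, stood at -2.99, 0.22, 0.30 and -3.12, and Capg, an actin-capping protein, at 2.40, 4.43, 6.08 and 2.43. For all 3, the si-RL-labelled library lay close to naive T cells. Il2ra did not follow this pattern, with -3.68, 1.65, 4.45 and 2.11, far above naive T cells.

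The naive T cell list gave 12 of 24 higher by 2-fold and 2 lower (median 0.84). Pde3b, a phosphodiesterase gene, stood at 0.73, -2.21, -1.52 and 3.77 across the 4 arrays in that order, above naive T cells as well as Treg (5.97 ± 0.21). Tcf7 (4.02, 2.84, -0.44 and 4.09) and Lef1 (6.12, 3.98, 3.47 and 6.35), transcription factors of naive and memory T cells, stood near their naive levels. Dapl1 (3.48, -0.55, -3.26 and 1.65) and Nsg2 (1.96, -0.72, -4.68 and -0.08) stayed below theirs. In the si-RL-labelled library, 11 of the 24 (45.8%) were nearest to naive T cells among the other arrays, against 30.2% of all measured genes. The lymph node homing receptor gene Ccr7 (-0.57 ± 0.20) and the quiescence factor Klf2 (-0.53 ± 0.20; other probe -1.48) were within 2-fold of Treg, and Cd27 (-1.24 ± 0.20) and Ly6c1 (-4.07 ± 0.21) were lower. Of 20 pan T cell genes none was 2-fold higher and 6 were lower, led by Cd96 (-2.61 ± 0.20) and Cd5 (-1.76 ± 0.20). With normexp 3 were lower, and the list median of -0.23 lay above the all-gene median of -0.31. Cd3d (0.24) and Cd4 (-0.13) were within 2-fold.

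**Figure D4:**
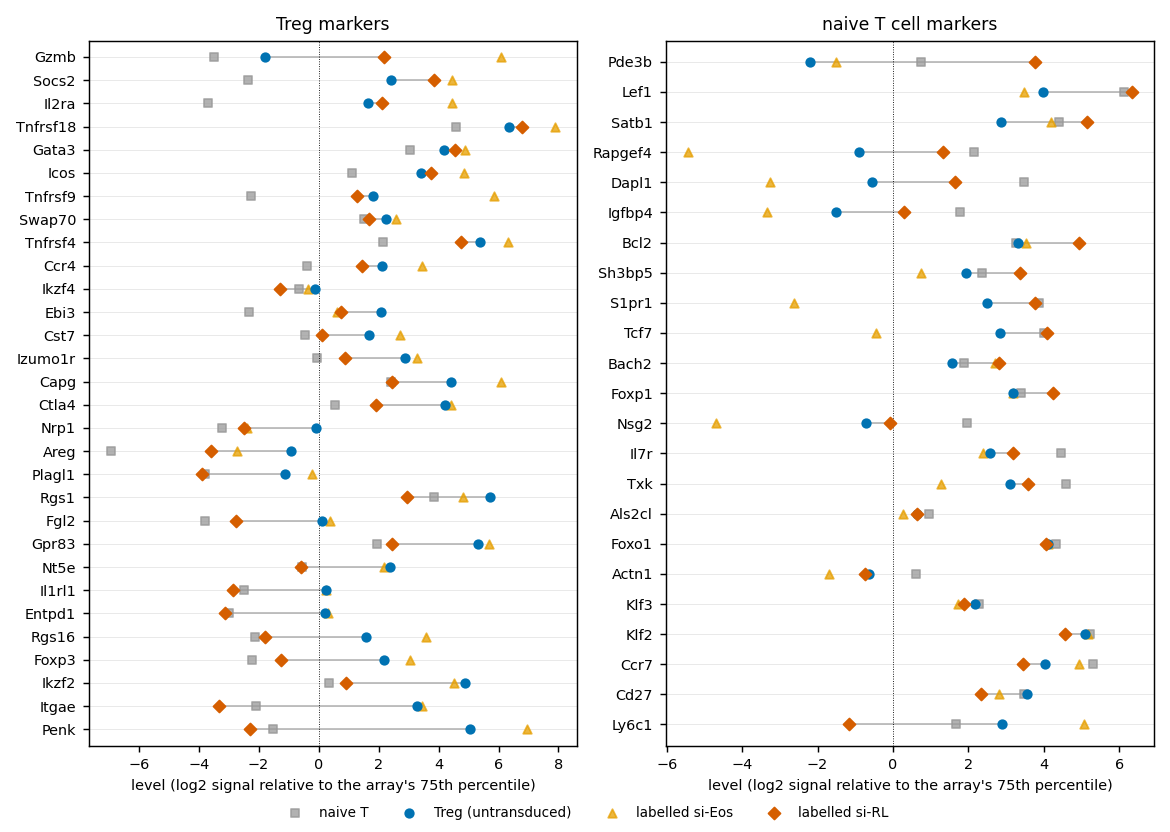
Levels (log2 signal relative to the array's 75th percentile) of 30 measured Treg markers (left) and of naive T cell markers (right) on the 4 arrays; grey lines join Treg and the si-RL-labelled library. For Nt5e, Entpd1, Capg and Plagl1 the si-RL diamond overlies or touches the naive T square, and for Il2ra, Tnfrsf18 and Icos it lies beside the Treg circle.

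Markers of other cell types were checked, since the beads and sorts could leave other cells behind. Of 19 B and plasma cell markers on the array, 15 were measured; 8 were at least 2-fold lower and 1, Fcmr, was just past 2-fold higher but came out at -0.53 with normexp. Jchain, the joining chain of secreted IgM and IgA, had levels of 4.53, 4.49, -5.58 and -3.83, high on both untransduced arrays. The list's summed signal, in units of each array's 75th percentile, came to 69.3 in Treg and 18.6 in the si-RL-labelled library, beside 44.3 in naive T cells and 11.3 in the si-Eos-labelled library. The B cell factors Pax5 and Ebf1 were not well above background on both arrays (signals 9.68 and 2.66 in Treg, 9.16 and 2.45 in the si-RL-labelled library), while Ms4a1 (-0.17) was within 2-fold. The summed signal was thus lower on both hairpin arrays than on both untransduced arrays, but not every B cell gene was lower. In the si-Eos-labelled library, 7 of the 15 were at least 2-fold below Treg and 0 above (median -0.59). Jchain and Cd74 also belong to the group of probes described at the end, although the other probe of Jchain gave -7.99. Outside that group, Cd79b (-3.06 ± 0.21), Mzb1 (-2.64 ± 0.22), H2-Eb1 (-2.39 ± 0.22) and Blnk (-2.35 ± 0.25) were lower as well. These had no other measured probe. Over the 30 measured Treg markers, the si-Eos-labelled library had 11 at least 2-fold above the Treg array and 3 below (median 0.56). Over all 17082 measured genes, 1448 were above and 1823 below in that comparison. The part of B cell transcripts in the values of the si-RL-labelled library was not tested.

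Myeloid markers gave 12 measured of 25, with 1 higher, Csf1r (1.03), and 2 lower (summed signal 11.9 in Treg and 9.10 in the si-RL-labelled library). Of all measured genes, 7.89% were higher and 8.21% lower. Of the NK and CD8 T cell list, 7 of 15 were measured, with 1 higher, Klrd1 (1.89), and 2 lower (7.54 and 4.77). Erythrocyte and platelet markers (6 of 11 measured; 0 higher, 2 lower) summed to 2.31 and 1.18, and fibroblast and epithelial markers (6 of 14; 0 higher, 1 lower) to 1.61 and 1.19. In each of these lists the summed signal was lower in the si-RL-labelled library than in Treg. Fewer cells of a type and less RNA per cell cannot be told apart in such bulk samples.

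Chemokine receptors and integrins set where a T cell goes. Of 29 measured, 1 was higher, S1pr1, and 10 were lower (median -0.57); with spike-in scaling 14 were lower, and with normexp 4 were higher and 7 lower. Cxcr5, the receptor that leads cells into B cell follicles, stood at -1.85, 1.46, 1.64 and -4.02 in naive T cells, Treg, the si-Eos-labelled library and the si-RL-labelled library, 44.7-fold below Treg. Ccr6, which guides cells to mucosal tissue, stood at -0.76, 2.66, -0.42 and -1.54, 18.3-fold below Treg. Cxcr5 was high in the si-Eos-labelled library, while Ccr6 was low on both hairpin arrays.

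Itgae, the αE chain of CD103 that tethers T cells to epithelium, was 96.1-fold lower (-6.59 ± 0.24). Itgb8, the integrin chain with which Treg activate TGF-β, read 1621 in Treg, 921 in naive T cells and 634 in the si-Eos-labelled library. It was not well above background in the si-RL-labelled library, at least 119-fold lower than in Treg. As with the group of probes described at the end, it read high in both untransduced samples, and what its probe binds was not tested. The β2 chain Itgb2 (-1.66 ± 0.20), the β1 chain Itgb1 (-1.58 ± 0.20; other probes -1.81 to -0.91) and the αL chain Itgal (-1.47 ± 0.20) were lower too. Selplg (0.28) and Itgb7 (-0.40) were within 2-fold.

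Among costimulatory and inhibitory receptors and their ligands, 5 of 33 were higher and 12 lower (median -0.52). The inhibitory receptor gene Pdcd1 (PD-1) stood at -0.78, 2.34, 3.99 and -1.13 across the arrays (-3.46 ± 0.21), and the si-RL-labelled library was near naive T cells. Its ligand gene Pdcd1lg2 differed by -2.70 ± 0.27 and Cd274 (PD-L1) by -1.13 ± 0.20. Ctla4, which strips CD80 and CD86 from antigen-presenting cells, differed by -2.29 ± 0.20. Lag3, Havcr2 (TIM-3) and Cd160 were not well above background in the si-RL-labelled library. The TNF family ligands Tnfsf11 (-2.63 ± 0.21) and Tnfsf10 (-2.61 ± 0.21), Cd200 (-3.40 ± 0.21) and Tnfrsf1b, the TNF receptor 2 (-2.61 ± 0.20; other probe -0.77), were lower.

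The higher members of that list were Cd80 (2.79 ± 0.25; -0.14 with normexp), Tnfsf8 (CD30 ligand, 2.18 ± 0.20), Tnfrsf26 (2.15 ± 0.20), Ltb (lymphotoxin β, 1.26 ± 0.20) and Fas (1.11 ± 0.20; other probe 2.27). Outside the list, Tnfsf4, the OX40 ligand, was among the 15 largest differences of all. Its levels were -5.68, -3.15, 2.31 and 1.99, 35.1-fold over Treg, and both hairpin arrays were high.

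Of 28 measured cytokine and chemokine genes, 4 were higher and 7 lower; spike-in scaling gave 1 and 13, and normexp 2 and 17. Ifng read 4125 in Treg and 117 in the si-RL-labelled library, beside 439 in naive T cells and 3941 in the si-Eos-labelled library (-4.56 ± 0.21; other probe -4.43). Csf1 differed by -3.05 ± 0.21, Areg, the tissue repair factor amphiregulin, by -2.67 ± 0.26, and Tnf by -1.72 ± 0.21. Il10 was not well above background in the si-RL-labelled library, and Ebi3, which encodes a subunit of IL-35, differed by -1.36 ± 0.20. Higher were Mif (1.22 ± 0.20), Ltb, Csf2 (GM-CSF) and Il4; but Csf2 (1.58 ± 0.35) and Il4, just past 2-fold, turned to -1.17 and -0.33 with normexp. Il2 itself differed by -0.40 ± 0.31, and Tgfb1 by -0.47 ± 0.21.

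Cytokine receptor genes were 3 of 29 higher and 6 lower (median -0.27), beside 7.89% higher and 8.21% lower over all measured genes. Tgfbr3 (1.76 ± 0.20) and Ifngr2 (1.16 ± 0.20; other probe 0.80) were higher, and so was Il12rb2 (1.02 ± 0.32), which came out at -1.22 with normexp. Il1rl1, the IL-33 receptor ST2 of tissue Treg, differed by -3.09 ± 0.23, although its other probe gave -0.78. Il12rb1 (-1.97 ± 0.20), Il27ra (-2.11 ± 0.20) and Il17rb (-2.80 ± 0.24) were lower. The decoy receptor Il1r2, high in Treg, was not well above background in the si-RL-labelled library. The common γ chain gene Il2rg (-0.33) and Il7r (0.61; other probes 0.94 to 1.51) were within 2-fold.

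**Figure D5:**
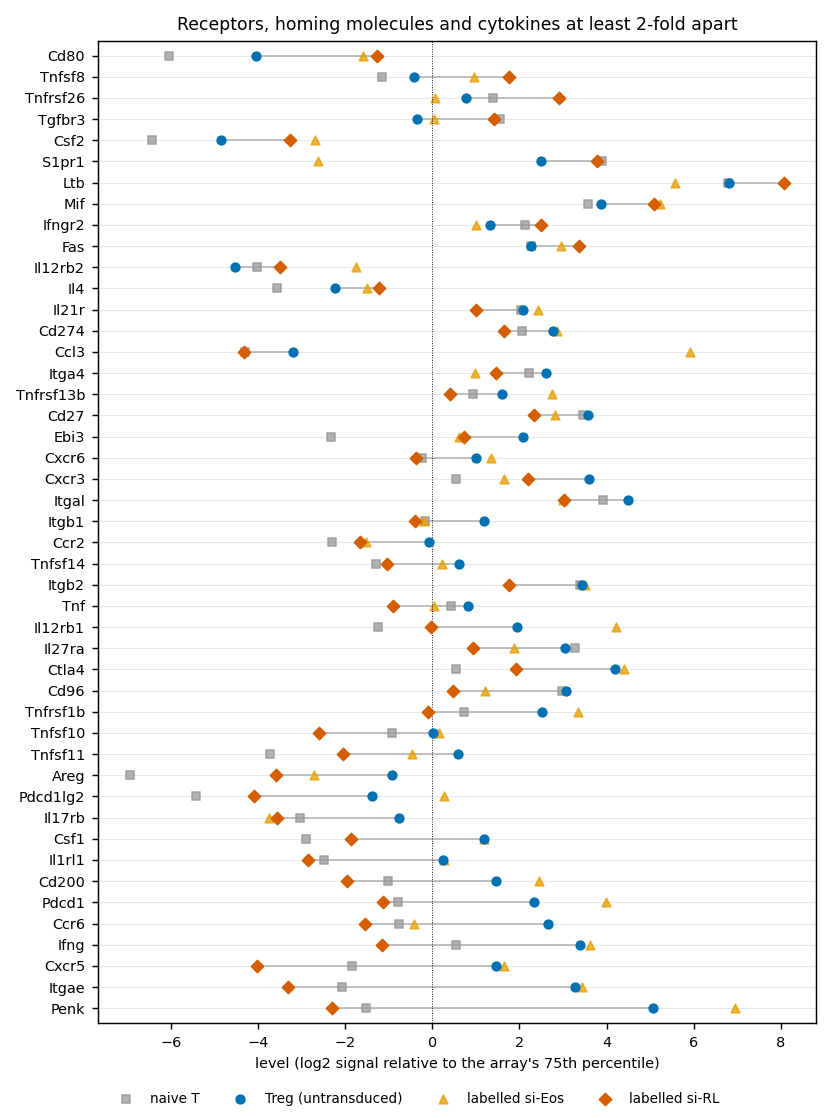
Levels (log2 signal relative to the array's 75th percentile) on the 4 arrays of the receptor, homing and cytokine genes that were at least 2-fold apart between the si-RL-labelled library and Treg. For Penk, Itgae, Cxcr5 and Ifng the si-Eos-labelled library lies beside or above Treg and the si-RL-labelled library lies below naive T cells.

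IL-2 acts through STAT5, and the culture medium held it. Of 26 measured IL-2 and STAT5 targets, 8 passed 2-fold upward and 3 downward; the median, 0.35, came to -0.02 with spike-in scaling. The feedback inhibitors Cish (1.34 ± 0.20), Socs2 (1.45 ± 0.20, and 0.67 on its other probe) and Socs1 (1.13 ± 0.20) were higher. So were the kinase gene Pim2 (2.11 ± 0.20, other probes 2.16 to 2.37), Myc (2.08 ± 0.20, other probes 0.86 to 2.09) and Gzmb (granzyme B, 3.99 ± 0.21). Prf1, the perforin with which granzymes enter target cells, was lower (-2.39 ± 0.31). Over naive T, Treg, the si-Eos-labelled library and the si-RL-labelled library, Gzmb stood at -3.48, -1.80, 6.08 and 2.19 and Prf1 at 0.56, -1.77, -0.68 and -4.16, so the 2 cytolytic genes went opposite ways.

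The cytotoxic and serpin list as a whole had 3 of 19 higher, all of them granzymes (Gzmb, Gzmd and Gzmc), and 7 lower. Gzmc came out at -0.72 with normexp, and Gzmd and Gzmc belong to a cluster of similar genes. Lower were the serpin genes Serpina3f (-4.13 ± 0.30) and Serpina3g (-3.87 ± 0.20), the cathepsin gene Ctsw (-3.59 ± 0.21) and Nkg7 (-2.44 ± 0.20). Serpina3f and Serpina3g are members of a multigene family that probes may not separate.

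Helper lineage factors had 1 of 28 higher, Runx3 (1.08 ± 0.21; other probe 0.37), and 8 lower. Zbtb32 was lowest (-4.40 ± 0.26, levels -1.77, 0.53, 2.58 and -3.86). Ahr, the dioxin receptor (-2.48 ± 0.25), Irf8 (-1.96 ± 0.20) and Runx2 (-1.78 ± 0.21) followed. Tbx21 (T-bet) stood at 0.57 in Treg and 0.57 in the si-RL-labelled library, and Bcl6 differed by -0.26.

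Interferons switch on a set of antiviral genes through transcription factors that bind an element with repeated GAAA. Of 39 measured interferon-stimulated genes, 20 were at least 2-fold lower in the si-RL-labelled library and 1 higher, Ly6e (2.71 ± 0.20). The promoters of lower members with a single start are shown for this element. Matches to GAAA, any 2 bases and GAAA again (TTTC, any 2 bases and TTTC on the other strand; matches may overlap) are in capitals, in 80 bases from the 250 before the gene start (RefSeq, GRCm38.p6):
Oas1a (chr5:120907526-120907605, - strand): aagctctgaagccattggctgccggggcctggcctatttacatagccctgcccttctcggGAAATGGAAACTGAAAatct
Ifit3 (chr19:34583350-34583429, + strand): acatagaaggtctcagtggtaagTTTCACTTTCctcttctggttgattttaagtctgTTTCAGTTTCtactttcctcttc
Ifit1 (chr19:34640754-34640833, + strand): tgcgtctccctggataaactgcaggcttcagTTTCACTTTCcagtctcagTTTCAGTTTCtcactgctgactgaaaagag

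Of the 9 members with a single start that were measured on both arrays and at least 2-fold lower, 6 (66.7%) held the element. So did 5 of 11 (45.5%) of the measured members less than 2-fold apart, 0 of 3 members not measured on both arrays, and 3.11% of all genes with a single start. Ifi44, one of those 3, was well above background in Treg only and at least 13.1-fold lower. As with hypoxia, the list was made of known interferon targets. Oas1a, which makes the activator of RNase L, stood at -0.59, 0.45, -2.17 and -4.38 across naive T cells, Treg, the si-Eos-labelled library and the si-RL-labelled library, 28.3-fold below Treg. Usp18, the feedback inhibitor of the interferon receptor, stood at 2.29, 1.88, 0.40 and -1.62. Both were low on the hairpin arrays and lowest in the si-RL-labelled library. The factor genes Irf9 (-1.36 ± 0.20) and Irf7 (-1.71 ± 0.21) were lower, Stat2 differed by -0.68, and the receptor genes Ifnar1 (0.14) and Ifnar2 (-0.32) were within 2-fold. The si-Eos-labelled library had 20 of 39 lower and 1 higher against the same Treg array, beside 1823 lower and 1448 higher of all 17082 measured genes.

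MHC class I molecules show peptides from inside the cell to CD8 T cells, and immunoproteasome and TAP proteins supply the peptides. All 17 measured members were below Treg, 4 of them by at least 2-fold (median -0.75). With normexp the median was -0.20, above the all-gene median of -0.31, so the shift relative to other genes turned there. Tap1, one chain of the peptide transporter, stood at 1.99, 1.95, 2.50 and -0.17 in the 4 arrays (-2.13 ± 0.20), and its partner Tap2 differed by -0.75 ± 0.20. The heavy chain genes H2-K1 (-0.87 ± 0.20) and H2-D1 (-0.72 ± 0.20; other probe -1.20) and the light chain B2m (-0.87 ± 0.20; other probes -1.14 to -0.56) were within 2-fold, and class I heavy chain genes are similar enough for probes to cross-react. Psmb9, an immunoproteasome subunit, differed by -1.03 ± 0.20 and Psmb8, in the same complex, by -0.11 ± 0.20.

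Immediate early genes are switched on within minutes of receptor signals. Of 35 measured, 15 were at least 2-fold lower and 4 higher (median -0.84). The ERK phosphatase gene Dusp4 stood at -0.87, 3.14, 4.91 and -0.57 across the arrays, 13.1-fold below Treg, and Nr4a2 differed by -3.34 ± 0.23. Zfp36 (-2.68 ± 0.20), which encodes an mRNA decay factor, Dusp1 (-2.43 ± 0.20) and Fos (-2.08 ± 0.20) were lower on both hairpin arrays. By contrast, Fosl2 (-2.03, -3.51, 1.11 and 0.61) was higher on both, with a difference of 4.12 ± 0.23 and 2.25 on its other probe. Ier3 (2.41 ± 0.32) was higher but came out at -0.87 with normexp. Nr4a1, a readout of T cell receptor signals, differed by -0.90 ± 0.20, and Cd69 by 0.76 ± 0.20.

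Cell cycle genes depended on the processing. Replication genes had 2 of 36 higher and 7 lower (median -0.50), while M-phase genes had 9 of 32 higher and none lower (median 0.59). For replication, spike-in scaling gave 1 higher and 13 lower, and normexp 1 and 1. For M-phase, spike-in scaling gave 2 higher and 0 lower, and normexp 5 and 2. The helicase subunit Mcm5 (-1.94 ± 0.20), Tyms (-1.18 ± 0.20) and the clamp Pcna (-1.05 ± 0.20) were lower. Kif11, the spindle motor (1.83 ± 0.21), Ccna2 (cyclin A2, 1.35 ± 0.20), Ccnb2 (1.10 ± 0.20) and Cenpf (1.35 ± 0.20) were higher. Ccne2 (1.41 ± 0.25), Anln (1.94 ± 0.23) and Hmmr (1.36 ± 0.25) were higher as well but turned to -0.87, -0.28 and -0.89 with normexp. Mki67, the proliferation marker Ki-67, differed by 0.57 ± 0.20 and Cdk1 by -0.40 ± 0.21.

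Of 18 cyclins, kinases and inhibitors, 4 were higher and none lower. Beside Cdkn1a these were Cdk6 (level -0.34, 1.97, 4.16 and 4.29 in naive T, Treg, si-Eos and si-RL), Cdk2 (1.55 ± 0.21; other probe 0.27) and the retinoblastoma relative Rbl2 (1.14 ± 0.20). Cdkn1b (p27) differed by -0.16 ± 0.20, so p21 and p27 did not go together. Replication-dependent histone genes had 6 of 18 higher, led by the linker histone H1f4 (2.47 ± 0.20, but -0.37 on its other probe), and 1 lower, H3c1 (-1.63 ± 0.21). These mRNAs mostly lack a poly(A) tail and have near-identical copies, so their values are uncertain.

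Ribosomal genes were mostly within 2-fold of Treg. Cytosolic ribosomal proteins had 0 of 34 higher and 1 lower (median 0.03), and ribosome biogenesis genes 1 of 28 higher, Myc, and none lower (median -0.36, or 0.03 with normexp). In the phosphatidylinositol 3-kinase and FoxO list, 7 of 27 were higher and 1 lower (4 and 4 with spike-in scaling, 8 and 1 with normexp). Eif4ebp1, the translation repressor (2.43 ± 0.20; other probe 1.26) and Pik3ip1 (3.23, 1.83, -0.38 and 3.14 across the 4 arrays) were higher, and Rptor, the mTORC1 scaffold (-1.17 ± 0.20; other probe -0.28), lower. Foxo3 (1.84 ± 0.27) came out at -0.76 with normexp, and Foxo1 differed by -0.06. Autophagy and lysosome genes had 3 of 32 higher (Lamp2, 1.81, Gabarapl1, 1.51, and Ulk1, 1.43) and 2 lower, which is near the share over all genes.

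Clock genes had 4 of 18 higher and 1 lower, but 1 higher and 4 lower with normexp, and 2 and 3 with spike-in scaling. Cry1 (1.69 ± 0.20), Tef (1.31 ± 0.20), Ciart (1.78 ± 0.22) and Per3 (1.36 ± 0.33) were higher and Nr1d1 (-1.58 ± 0.21) lower, and Ciart and Per3 turned to -0.17 and -1.14 with normexp. Iron handling had 1 of 12 higher and 0 lower, and TGF-β signalling 1 of 17 higher and 1 lower, beside 7.89% higher and 8.21% lower over all measured genes. In the list of S100 proteins, annexins and galectins, 3 of 23 were higher, among them Anxa2 (1.95 ± 0.20) and Emp1 (2.12 ± 0.20), and 3 lower, led by S100a4 (-2.74 ± 0.20).

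The largest differences outside the lists were of varied genes. Dyrk3, a dual-specificity kinase, stood at -4.19, -4.22, 0.83 and 1.77 and Mgarp, a mitochondrial protein, at -5.00, -4.34, -0.73 and 1.44 across naive T cells, Treg, the si-Eos-labelled library and the si-RL-labelled library. Pygl, the liver form of glycogen phosphorylase, stood at -4.16, -3.04, -1.62 and 1.67. Dyrk3 and Mgarp were high on both hairpin arrays relative to Treg, and Pygl chiefly in the si-RL-labelled library. Drc1, a subunit of the ciliary dynein regulatory complex, was 22.9-fold higher (-1.55, -0.24, -2.38 and 4.28), with the si-Eos-labelled library below Treg. Above background in the si-RL-labelled library but not in Treg were 544 genes, 247 of them by at least 2-fold, and the reverse held for 1667 genes, 487 of them by at least 2-fold. After P4ha2, the largest bounds on the higher side among genes with a plain symbol were Fam183b (at least 183-fold), Vldlr, Akr1c18 (47.4-fold), Smtnl2 (33.2-fold) and Lama5 (31.8-fold). On the lower side they were Syt6 (at least 276-fold), Eml6 (244-fold), Kif12 (194-fold), Adamtsl3 (188-fold) and Adamts4 (179-fold). All 5 were high in both naive T cells and Treg and far lower on both hairpin arrays. Syt6, for example, read 3747 in Treg and 7.17 in the si-RL-labelled library, beside 2275 in naive T cells and 246 in the si-Eos-labelled library. Other genes with this order of arrays had further probes that mostly disagreed, so these bounds rest on probes whose specificity was not tested.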

How the data were processed

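RNA of 4 samples was hybridised with Cy3 to 1-colour Agilent mouse arrays, 1 array per group, all on 1 slide. The deposited scanner files hold spot intensity on a linear scale from Agilent Feature Extraction 9.5.3.1, background-subtracted by spatial detrending per the file headers; the RNA was linearly amplified, per the labels' protocols. The authors' series value table held the same intensity values and served as an alternative.

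Levels are log2 processed signals from which the array's own 75th percentile, over 41174 non-control probes, was subtracted (Python 3.11.15, pandas 2.3.3). Flagged spots were left out (71 to 94 per array), none was saturated, and a gene was given by its brightest probe over the 4 arrays. Probes well above background numbered 26721 to 28112 per array, and the 75th percentile signal ran from 262 to 392. Names came from RefSeq (GRCm38.p6) or the files. Where no probe was well above background on 1 array, "at least" sets the bright level against the higher of the dim array's lowest level well above background and the dim probe's own. The counting was tested on simulated data.

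Named genes were Ikzf4 and Foxp3, the 15 largest differences each way whose other probes went the same way, up to 6 list members each way at least 2-fold apart plus defining members, and up to 8 genes each way above background on 1 array only; not all are named. The members and the 43 lists (1172 entries, 1048 genes on the array) were chosen with earlier results of these data known. Some genes counted in the lists are not reported here by name. Motifs were counted in the 250 bases before genes with 1 start in the RefSeq promoter table. Alternatives were array median, quantile and spike-in scaling, normexp (limma 3.58.1, offset 50), the mean of probes, and filters on dim probes.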

Additional observations from a re-analysis of the deposited data

How the results depend on the processing

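No test was possible with 1 array per group, and the number of arrays, not of spots, limits precision. No paired analysis was possible because each group has 1 array and the labels give no replicate numbers. With array median scaling, quantile normalization, the mean of probes and the filter on all 4 arrays, the counts of genes at least 2-fold apart stayed within 1.5 times. They were 654 higher and 2967 lower with spike-in scaling, 4462 lower with normexp, and 2581 higher and 2805 lower with no filter on dim probes. The medians of the hypoxia, p53 and MHC class I lists came to 1.30, 1.10 and -1.13 with spike-in scaling, and those of p53 and MHC class I to 1.10 and -0.20 with normexp; the cause was not tested, but spike-in scaling moves all genes by the same amount. List medians that changed sign with spike-in scaling were those of the BCL-2 family (-0.15), cyclins and inhibitors (-0.11), IL-2 and STAT5 targets (-0.025), autophagy and lysosome (-0.17) and iron handling (-0.13). With normexp they were pentose phosphate (0.0042), oxidative phosphorylation (0.27) and ribosome biogenesis (0.028). Of 237 named genes at least 2-fold apart, 207 stayed so the same way with spike-in scaling and 169 with normexp. Normexp alone reversed 15: Anln (-0.28), Ccne2 (-0.87), Cd80 (-0.14), Ciart (-0.17), Csf2 (-1.17), Fcmr (-0.53), Foxo3 (-0.76), Gclm (-0.78), Gzmc (-0.72), Hmmr (-0.89), Ier3 (-0.87), Il12rb2 (-1.22), Il4 (-0.33), Nqo1 (-0.78) and Per3 (-1.14). Over the 7 alternatives, 18 to 22 Treg markers lay nearest to naive T cells, and 29 to 39 hypoxia genes nearest to the si-Eos-labelled library.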

Other observations

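A group of probes behaved apart from the rest, and it was chosen after its values were seen. Of the genes measured on both arrays, 64 were lower by 4 or more on the log2 scale in the si-RL-labelled library while naive T cells and Treg lay within 2-fold of each other. Among them 8 were named, by gene symbol, as immunoglobulin segments or the joining chain. Others carry only a clone name or a sequence identifier, so more of the 64 may be immunoglobulin transcripts, which was not checked. In the si-Eos-labelled library, compared with the same Treg array, all 64 were at least 2-fold lower, by -2.22 to -10.8. Of the 11 that had another measured probe, 9 had a probe that was not 2-fold lower. They were 8 of the 8 not named as immunoglobulin or joining chain, and 1 of the 3 that were. The other probe of Jchain gave -7.99, and the 7 others of Iglv1 gave -6.40 to -4.78. The other 20 genes with differences of -4 or below, where naive T cells and Treg were more than 2-fold apart, held 7 with another measured probe, and none of these had a probe that was not 2-fold lower. Of the 23 genes higher by 4 or more, 4 had another measured probe and 1 of these had a probe that was not 2-fold higher.

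Single genes show the disagreement. Tcf4, an E-protein transcription factor, differed by -4.62 on its brightest probe and by 0.56 and 0.68 on the others. Rad51d, a DNA repair gene, differed by -4.55, against 0.43 and 1.03. Ccl19, a chemokine made by lymph node stroma, differed by -4.86, against 1.37, and the iron-sulphur protein gene Cisd3 by -6.46, against -0.02. Creb3l3, Lgr4, Ppp1r14c and Duox2, among the largest lower values of the whole comparison, belong to the same group and had no other measured probe. Which transcripts these probes bind was not tested.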
